A study of Homo sapiens with 12 samples.

Results

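Complex I (NADH:ubiquinone oxidoreductase) takes electrons from NADH, passes them to ubiquinone in the inner mitochondrial membrane and pumps protons as it does so. It is an L-shaped assembly with a matrix arm, which holds the flavin and the iron-sulfur clusters, and a membrane arm, which moves the protons. Its core subunits do the chemistry and are encoded partly in the nucleus and partly in mitochondrial DNA, while the accessory subunits around them, all nuclear, are needed for assembly and stability. The nuclear genes are described here in 12Z cells, an immortalized epithelial line from endometriosis. The genes were chosen by name, as protein-coding genes whose symbol is NDUFA, NDUFB, NDUFC, NDUFS or NDUFV followed by digits only, or NDUFAB1. This gave 38 genes of the 60617 in the count files, and all 38 were among the 22756 genes tested. One of them, NDUFA4, carries the old complex I name but is a subunit of complex IV (cytochrome c oxidase), which leaves 37 complex I genes.

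All 12 libraries came from 12Z cells that had received non-targeting siRNA. Control cells were transiently given the empty pBabe plasmid, and H1047R cells were given pBabe with PIK3CA H1047R, the activated catalytic subunit of phosphoinositide 3-kinase, so that the mutant was overexpressed in 1 cell line and was not a mutation of the cells' own gene. Serum was withdrawn for 4 h, after which 100 nM insulin or vehicle was given for 24 h. Each kind of cell was thus studied with vehicle and with insulin, which gave 4 groups of 3 libraries described as independent experiments, named H1047R insulin, H1047R vehicle, control insulin and control vehicle.

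Gene counts per library ran from 30071951 to 37918025 in H1047R insulin and from 21483124 to 29255708 in the other groups. Reads placed at several sites, which are not in the counts, made up 8.48 to 9.51% of reads in H1047R insulin and 13.6 to 15.4% in the other groups, without overlap. Levels below are in CPM, a gene's counts scaled to the library's total count with TMM factors. The transfected gene followed the labels: PIK3CA stood at 80.9 to 89.0 CPM in control libraries, at 180 to 312 CPM in H1047R vehicle and at 714 to 734 CPM in H1047R insulin. Epithelial keratins were abundant (KRT8 between 1360 and 1500 CPM, KRT19 between 565 and 757 CPM), but EPCAM, at 0.379 to 1.06 CPM, and CDH1, at 1.11 to 2.38 CPM, were near absent, while the mesenchymal marker VIM stood at 1730 to 2350 CPM. PTPRC, the pan-leukocyte marker, stayed between 0.425 and 1.36 CPM.

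The DNA before the first transcribed base is shown for 5 members that stand for the range of responses to insulin described below, and for which no annotated exon covers the stretch. NDUFA1 and NDUFB7 fell in H1047R cells given insulin, NDUFA8 and NDUFB10 hardly moved, and NDUFAB1 was one of the 2 members with a positive value, which was not called. The sequences are from RefSeq (GRCh38.p14), 5′ to 3′ on the strand of the NDUF gene. NDUFA1 and NDUFA8 lie head to head with another gene, so the whole stretch between both starts is given (98 bases for NDUFA1, at chrX:119871734-119871831 on the plus strand, and 128 bases for NDUFA8, at chr9:122159780-122159907 on the minus strand). For the other 3 the last 120 bases before the start are given, at chr19:14572067-14572186 on the minus strand for NDUFB7, chr16:1959418-1959537 on the plus strand for NDUFB10 and chr16:23596317-23596436 on the minus strand for NDUFAB1. Capitals mark the ETS motif CCGGAAG bound by GABPA, or its reverse complement CTTCCGG.
NDUFA1: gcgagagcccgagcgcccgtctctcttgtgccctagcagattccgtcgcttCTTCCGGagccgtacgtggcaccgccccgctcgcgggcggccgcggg
NDUFA8: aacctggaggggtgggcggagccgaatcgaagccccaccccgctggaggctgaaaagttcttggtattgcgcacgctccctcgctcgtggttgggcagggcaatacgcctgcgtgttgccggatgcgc
NDUFB7: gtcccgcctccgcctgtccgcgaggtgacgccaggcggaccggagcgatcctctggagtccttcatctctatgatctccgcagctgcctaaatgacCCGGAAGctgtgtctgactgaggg
NDUFB10: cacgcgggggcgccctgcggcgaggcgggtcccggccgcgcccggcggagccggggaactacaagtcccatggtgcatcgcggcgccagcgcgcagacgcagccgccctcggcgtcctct
NDUFAB1: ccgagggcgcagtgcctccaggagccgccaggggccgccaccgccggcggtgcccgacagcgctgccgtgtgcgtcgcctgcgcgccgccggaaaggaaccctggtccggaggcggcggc

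Among the printed stretches the ETS motif occurs in those of NDUFA1 and NDUFB7. Motifs were counted on both strands in RefSeq promoter windows from 250 bases before to 50 bases after the start, which were at hand for 32 of the 38 members. The windows of 5 members (15.6%) held the ETS motif (NDUFA1, NDUFA13, NDUFB7, NDUFS1 and NDUFS3), against 10.3% of all 35116 windows and 18.2% of the 11680 windows of expressed genes, those averaging at least 10 CPM. GCATGCG, the core of the motif of NRF1, a regulator of nuclear respiratory genes, was in 5 members (15.6%: NDUFA6, NDUFA8, NDUFB4, NDUFS6 and NDUFS7), against 3.91% of all windows and 6.07% of expressed ones. The YY1 motif AAGATGGC was in 6 members (18.8%), against 2.89% and 5.38%, and these were NDUFA3, NDUFA6, NDUFA7, NDUFA9, NDUFS4 and NDUFS7. TATAAA was in 3 members (9.38%: NDUFA2, NDUFA7 and NDUFA9), against 11.5% and 5.75%, and the ESRRA motif TCAAGGTCA in none, against 0.353% and 0.146%. A window was counted once per motif, also where a match on both strands overlaps. Of the 14 members that fell in H1047R cells given insulin, NDUFA4, NDUFC2 and NDUFS5 had no window. Among the rest, NDUFB4 held the NRF1 core, NDUFA1 and NDUFB7 the ETS motif, NDUFA3 the YY1 motif and NDUFA2 TATAAA. The other members that held a motif, among them NDUFA13, NDUFS1 and NDUFS3 with the ETS motif, were not called there. The letters of a motif say nothing by themselves about binding, and a link of any motif to the fall was not tested.

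The members differed widely in level. Compared per length, as CPM per kilobase of the canonical transcript, the highest were NDUFS5, an intermembrane-space subunit, at 282.5, NDUFA1, a small membrane subunit, at 235.2, and NDUFB9 at 200.1. The lowest were NDUFA7 at 0.5131, NDUFV2 at 0.6231, NDUFA9 at 1.463 and NDUFA13 at 1.644. NDUFA9 averaged 12.2 CPM with 11.7% of its exon bases shared, and its value per length is divided by a canonical transcript of 8356 bases. The low values were set beside the annotation. In 5 members, NDUFA7, NDUFA11, NDUFA13, NDUFB8 and NDUFV2, another annotated gene on the same strand covers 68.2 to 90.0% of the exon bases of the canonical transcript. STAR leaves a read that fits 2 genes out of both counts. These 5 averaged 8.2 to 156.2 counts per library (0.298 to 5.67 CPM), whereas the other 33 averaged 342.8 to 4222.5 counts (12.2 to 152 CPM), and the ranges did not overlap. The overlapping genes themselves averaged at most 3.6 counts. For NDUFV2, an iron-sulfur subunit, 90.0% of exon bases are shared with a lncRNA, and the counts ran from 10 to 24 per library. Where shared bases are left out, the counts of these 5 members are those of the unshared part of each gene and cannot be read as its level. The authors' human annotation release is not given in the sources used here, so the overlaps hold for the release used here.

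**Figure D1:**
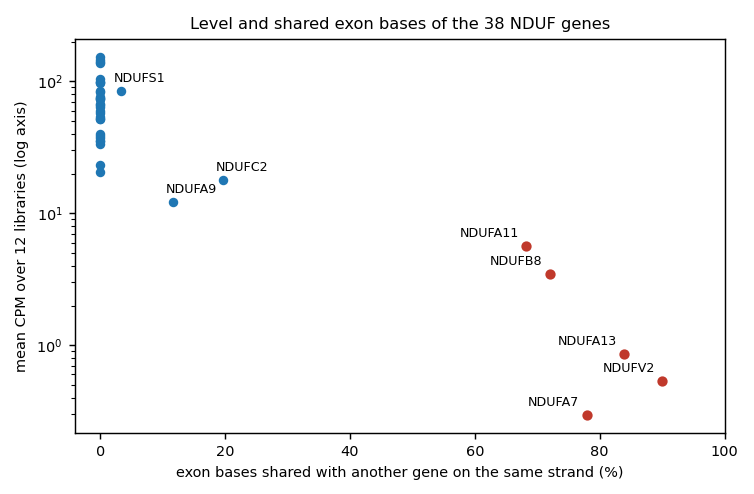
Mean level of each of the 38 genes over 12 libraries (CPM, log axis) against the percentage of its exon bases that another gene on the same strand also covers. The 5 genes in red share 68.2 to 90.0% and lie at 0.298 to 5.67 CPM, below all of the 33 others in blue, of which NDUFA9 and NDUFC2, with 11.7 and 19.7% shared, are the lowest.

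Insulin in control cells asked how cells without the mutant respond. None of the 38 members was called at an FDR below 0.001 with edgeR, and none with DESeq2, where 1.63% of all genes were called in either direction. The median log2 fold change of the members was 0.025, against 0.004 over all genes tested, and 3 members had an unadjusted p under 0.05, as did 16.4% of all genes. The nearest to a call was NDUFAB1, the mitochondrial acyl carrier protein, which also serves fatty acid and lipoate synthesis. Its levels were 33.7, 32.2 and 32.2 CPM in control vehicle and 40.1, 36.9 and 36.3 CPM in control insulin. The libraries did not overlap, and the log2 fold change was 0.21 ± 0.0596 (SE), with an adjusted p of 0.0276 that missed the threshold. It was the 1 member called at an FDR below 0.05, where 5.30% of all genes were.

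H1047R in vehicle gave a similar picture of the members. None was called with edgeR or with DESeq2, against 0.158% of all genes in either direction, 8 had an unadjusted p under 0.05, where 11.9% of all genes did, and the median was -0.013 against 0.002 over all genes. NDUFA5, a matrix-arm accessory subunit, had the lowest adjusted p, 0.0233, at -0.26 ± 0.063, and was the 1 member called at an FDR below 0.05, where 1.21% of all genes were. Its levels were 90.5, 87.1 and 72.8 CPM in control vehicle and 62.1, 70.6 and 76.4 CPM in H1047R vehicle, and these libraries overlapped.

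With insulin, complex I messages were lower in H1047R cells. Of the 38 members, 14 were called lower and none higher with edgeR, and 13 were called with DESeq2. At an FDR below 0.05, 27 were called (25 lower, 2 higher), where 34.3% of all genes were called in either direction. The background at the stricter threshold was 9.80% of all genes called lower, and 19.5% among the 9602 genes averaging at least 10 CPM. All 14 called members lie in that range of levels, where they are 42.4% of 33 members, while none of the 5 members with shared exons was called. The median log2 fold change over the members was -0.230, which is a fall of 14.8%, against -0.001 over all genes. Negative values were found for 36 members and positive ones for 2. In 29 members all H1047R insulin libraries lay below all H1047R vehicle libraries, a pattern that 22.2% of all genes showed. In bulk RNA, less of these messages in every cell and fewer cells that carry them cannot be told apart. Markers of cell type moved in the same comparison. Of 6 stromal or mesenchymal markers, 5 were called lower (COL1A1 at -0.50, PDGFRB at -0.48, PDGFRA at -0.46, THY1 at -0.20 and CDH2 at -0.20) and VIM higher (0.17), and their summed level was 4790 to 4940 CPM in H1047R insulin and 5320 to 5620 CPM in the 9 other libraries. The calls of THY1, CDH2 and VIM were lost when some single libraries were left out (highest adjusted p 0.00641, 0.00367 and 0.0063). Of 8 epithelial markers, KRT19 was called higher (0.24) and KRT7 lower (-0.30), with a summed level of 3280 to 3300 CPM in H1047R insulin and 2920 to 3260 CPM elsewhere. Of 4 immune markers, 3 were tested and none was called with edgeR, and their sum stayed under 7 CPM. Of 3 endothelial markers, VWF was called higher (0.92), at 4.12 CPM or less in every library. The part of these differences in the members' result was not tested.

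The shift was even across libraries. Set against the mean of control vehicle, the median log2 ratio of the members was -0.25, -0.23 and -0.23 in the 3 H1047R insulin libraries and between -0.04 and 0.06 in the 9 others. The same 3 libraries had the fewest multiply placed reads, the highest depth and the most PIK3CA, and the part of these differences in the result was not tested.

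**Figure D2:**
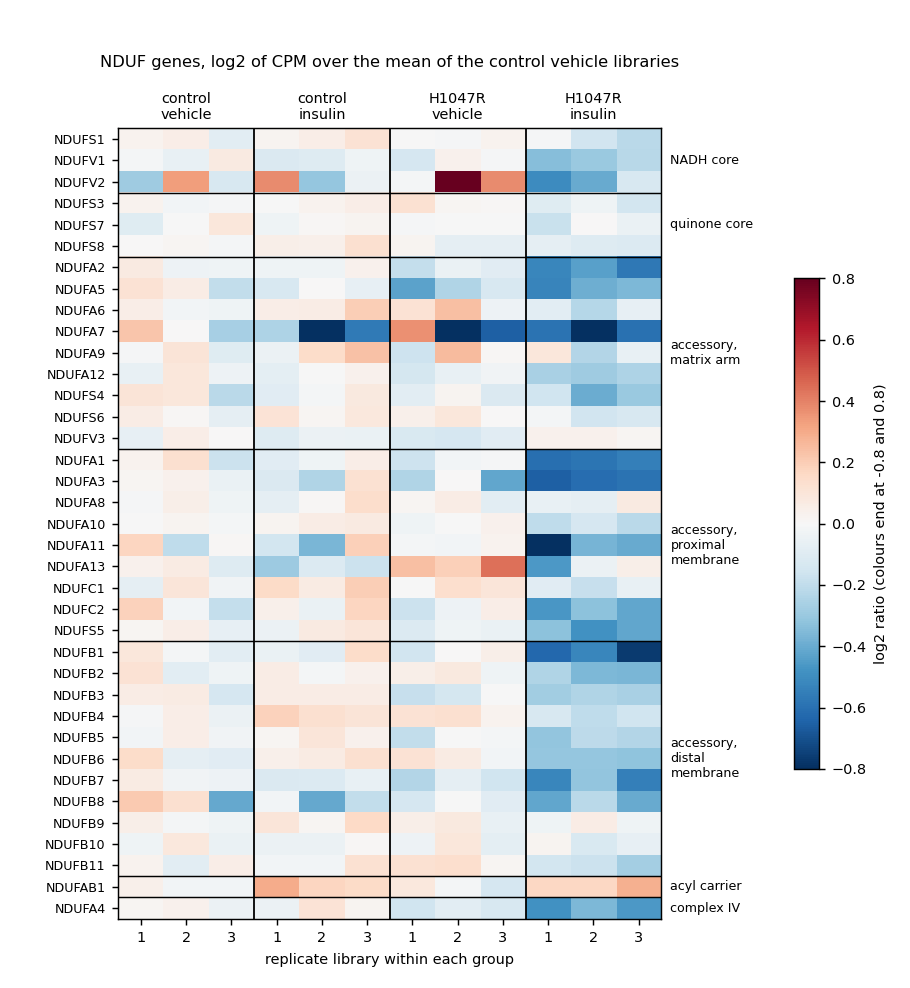
Log2 ratio of CPM to the mean of the 3 control vehicle libraries for 37 of the genes (rows, grouped by place in the complex) in each of the 12 libraries (columns). The H1047R insulin columns are mostly blue, with member medians of -0.25, -0.23 and -0.23, while NDUFV2 and NDUFA7, which rest on few counts, scatter in all groups and pass the ends of the colour scale.

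Among the core subunits of the matrix arm, 1 of 7 was called. NDUFV1 (chr11:67605653-67612554) binds FMN and is where NADH is oxidized. It stood at 142, 160 and 155 CPM in H1047R vehicle and at 123, 127 and 134 CPM in H1047R insulin, without overlap, and fell by 15.8% (log2 fold change -0.25 ± 0.0454, adjusted p = 2.16e-05 with edgeR). NDUFS1, the largest iron-sulfur subunit, was at -0.13 ± 0.0485 (adjusted p = 0.0289) and was not called. None of the 4 core genes on the quinone side was called. NDUFS8, an iron-sulfur subunit, was at 68.8, 64.4 and 64.4 CPM and then at 64.3, 63.1 and 62.8 CPM (-0.05 ± 0.0456). The groups stood just apart, by far less than in NDUFV1. NDUFS3, also of this side, was at -0.14 ± 0.0486 (adjusted p = 0.0197), close to NDUFS1, and its groups did not overlap. NDUFS7, of the same side, was at -0.07 ± 0.0553.

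Among the 9 accessory subunits of the matrix arm, 1 was called. NDUFA2 (chr5:140638740-140647771), a small subunit with a thioredoxin-like fold, stood at 81.8, 90.1 and 87.6 CPM in H1047R vehicle and at 65.1, 69.0 and 62.7 CPM in H1047R insulin. It fell by 24.2% (-0.40 ± 0.0475, adjusted p = 5.29e-09), with every insulin library well below every vehicle library. NDUFS4, needed for a stable NADH-oxidizing end and known as a Leigh syndrome gene, was at -0.23 ± 0.0622 (adjusted p = 0.00354), and NDUFA12 was at -0.19 ± 0.0475 (adjusted p = 0.00147). Neither passed the threshold. NDUFV3, which sits at the NADH-oxidizing end, went the other way without passing. It had 33.2, 32.9 and 33.9 CPM in H1047R vehicle and 37.0, 36.9 and 36.4 CPM in H1047R insulin, so the groups did not overlap (0.14 ± 0.0528, adjusted p = 0.0327).

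In the proximal part of the membrane arm, next to the matrix arm, 5 of 9 accessory subunits were called lower, with a median of -0.349 over the 9. NDUFA1 (chrX:119871832-119876662), a single-pass subunit needed for assembly, stood at 97.8, 108 and 109 CPM in H1047R vehicle and at 72.1, 73.3 and 75.1 CPM in H1047R insulin. It fell by 29.9% (-0.51 ± 0.0544, adjusted p = 3.53e-10). The 3 insulin libraries lay close together and far below the 9 others, the lowest of which was at 97.2 CPM. NDUFS5 (chr1:39026318-39034636), the member with the highest level per length, stood at 139, 146 and 144 CPM and then at 119, 107 and 112 CPM (-0.34 ± 0.0453, adjusted p = 4.80e-08). NDUFA3, a small hydrophobic subunit, had 17.7 to 23.7 CPM and then 15.0 to 15.7 CPM, with no overlap (-0.41 ± 0.0827, adjusted p = 8.92e-05). The NDUFA3 call leans on 1 library: without H1047R vehicle replicate 2 the value was -0.29 and the adjusted p 0.00795.

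NDUFC2, a subunit at the junction of both arms, went from 16.9, 18.5 and 19.8 CPM to 13.8, 15.2 and 14.3 CPM (-0.35 ± 0.0807, adjusted p = 0.000557). NDUFA10, which has a nucleoside-kinase-like fold, went from 105, 107 and 110 CPM to 93.1, 97.8 and 92.3 CPM (-0.18 ± 0.0416, adjusted p = 0.000483). Both were close to the threshold. NDUFC2 lost its call without H1047R insulin replicate 1 or 3 or H1047R vehicle replicate 2 or 3 (adjusted p 0.00486, 0.00369, 0.00279 and 0.00842), and NDUFA10 lost it without H1047R insulin replicate 1 or 3 or any H1047R vehicle library (adjusted p 0.00432, 0.00672, 0.00184, 0.00233 and 0.00538). NDUFA8, a CX9C subunit of the intermembrane space, stood at 37.6, 38.8 and 35.1 CPM and then at 35.8, 35.4 and 39.1 CPM, so that the groups overlapped (-0.02 ± 0.0579, adjusted p = 0.882).

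In the distal part of the membrane arm, where the NDUFB subunits lie, 6 of 11 members were called lower and the median was -0.265. NDUFB1 (chr14:92116122-92121917), a very small single-pass subunit, fell most of all called members. It stood at 38.4, 42.8 and 44.1 CPM in H1047R vehicle and at 27.6, 29.7 and 25.1 CPM in H1047R insulin, a fall of 34.3% (-0.61 ± 0.066, adjusted p = 6.57e-10). The lowest of the 9 libraries outside this group was at 38.4 CPM, so that the groups stood clear of each other. NDUFB6 went from 57.2, 55.4 and 52.1 CPM to 42.6, 42.6 and 42.2 CPM (-0.37 ± 0.0545, adjusted p = 4.74e-07), NDUFB2 from 63.8, 65.4 and 60.5 CPM to 52.4, 48.3 and 48.1 CPM (-0.35 ± 0.0516, adjusted p = 4.48e-07). Both are single-pass membrane subunits, and neither pair of groups overlapped. NDUFB7, a CX9C subunit, went from 62.8, 70.3 and 66.2 CPM to 51.5, 59.4 and 50.6 CPM (-0.30 ± 0.0535, adjusted p = 1.29e-05). NDUFB11, in which loss-of-function mutations cause X-linked disease, went from 108, 109 and 100 CPM to 89.6, 87.9 and 82.0 CPM (-0.29 ± 0.0485, adjusted p = 5.07e-06). NDUFB4 went from 104, 105 and 98.0 CPM to 87.8, 83.4 and 85.8 CPM (-0.26 ± 0.0437, adjusted p = 7.24e-06). All of these separated the groups without overlap.

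The arm was not uniform. NDUFB9, a LYR-motif subunit that holds an acyl carrier protein, had 140, 143 and 130 CPM in H1047R vehicle and 132, 141 and 132 CPM in H1047R insulin (-0.03 ± 0.0442, adjusted p = 0.691). NDUFB10, a CX9C subunit, had 56.5, 61.9 and 55.2 CPM and then 59.0, 53.6 and 55.7 CPM (-0.05 ± 0.0514, adjusted p = 0.553). In both genes the groups overlapped. NDUFAB1, which joins both arms, had 34.7, 32.4 and 29.8 CPM and then 36.6, 36.6 and 39.9 CPM (0.22 ± 0.0587, adjusted p = 0.00218). It was higher without overlap, close to its value in control cells (0.21), and missed the threshold in both. In H1047R cells it was called higher with length offsets (0.33, adjusted p = 1.27e-05), GC offsets (0.23, 0.000949), library totals only (0.26, 0.00045), no low-count filter (0.25, 0.000169) or without H1047R vehicle replicate 1 (0.30, 4.75e-05). NDUFA4, the complex IV subunit and the member with the highest CPM, went from 148, 156 and 151 CPM to 118, 129 and 120 CPM (-0.31 ± 0.0437, adjusted p = 2.57e-07).

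**Figure D3:**
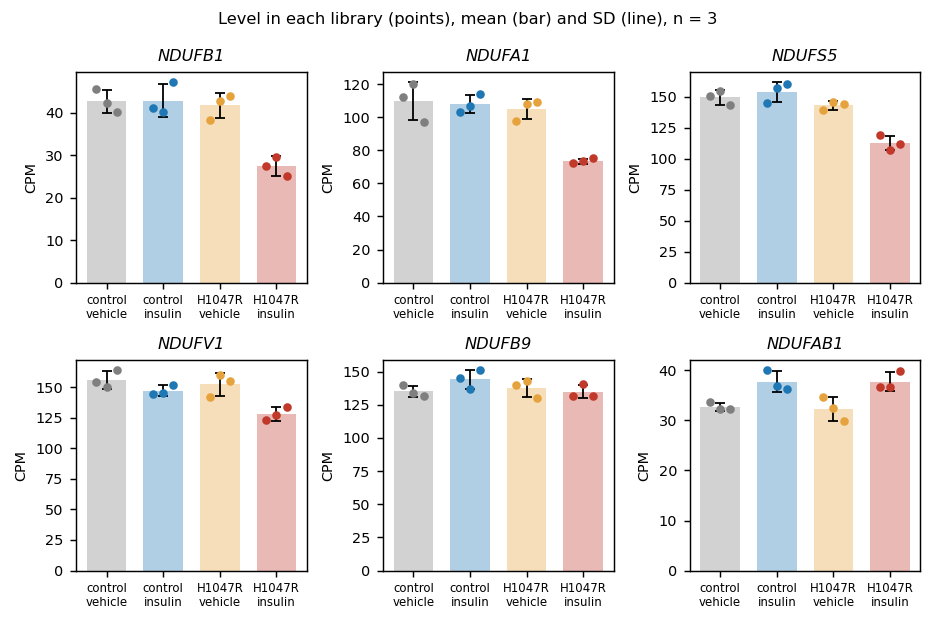
CPM in each library (points), group mean (bar) and SD (line, n = 3) for 4 members called lower in H1047R cells given insulin (NDUFB1, NDUFA1, NDUFS5, NDUFV1) and 2 not called (NDUFB9, NDUFAB1). NDUFB1 stands at 25.1 to 29.7 CPM in H1047R insulin and at 38.4 CPM or more elsewhere, while the NDUFB9 groups overlap.

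**Figure D4:**
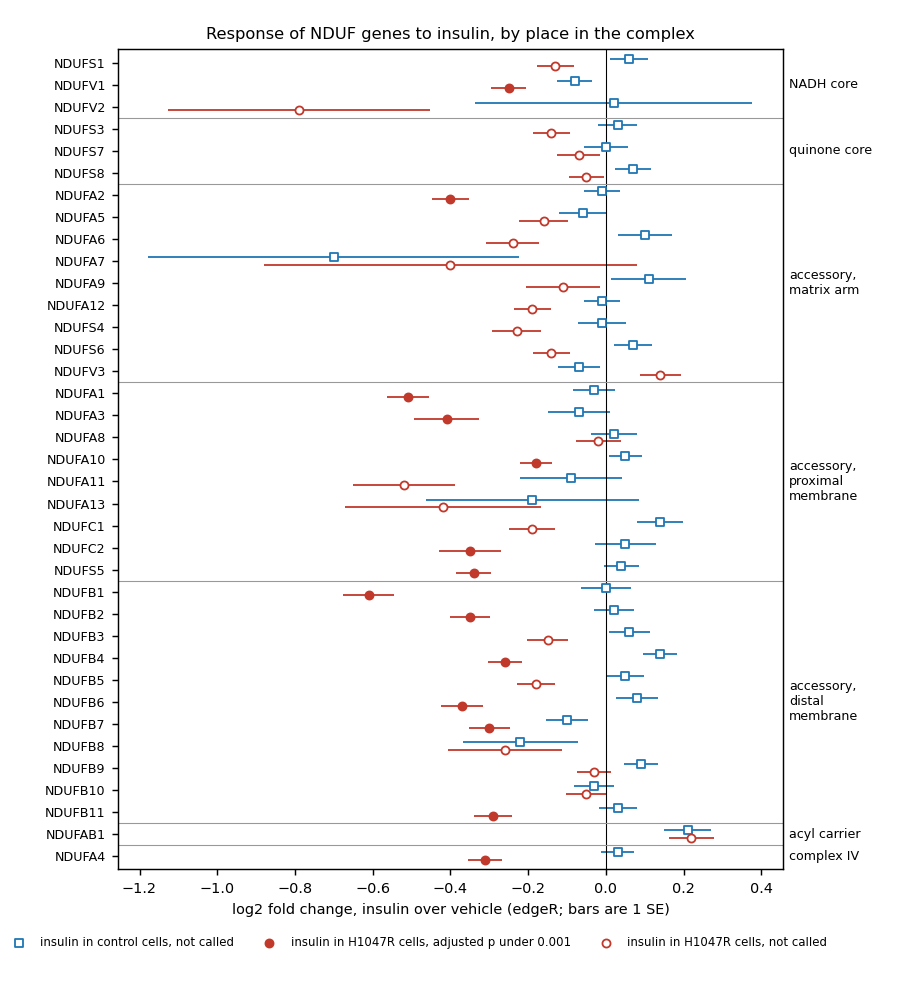
Log2 fold change with insulin (points, ± 1 SE) in control cells (blue squares) and H1047R cells (red circles, filled where called) for 37 of the genes, grouped by place in the complex. Filled circles mark 1 core gene, 12 of 30 accessory genes and NDUFA4 of complex IV, and no blue square is filled.

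By class, then, 12 of 30 accessory genes and 1 of 7 core genes were called lower, with medians of -0.246 and -0.133. The difference between the classes was not tested.

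The interaction asked directly whether insulin acted differently in the presence of the mutant. With edgeR, 9 members were called lower and none higher, where 4.49% of all genes, and 9.33% of those averaging at least 10 CPM, were called lower. DESeq2 called 8. At an FDR below 0.05, 20 were called, against 21.3% of all genes in either direction. The median over the members was -0.217, against -0.014 over all genes. The 9 were 8 accessory genes and NDUFA4. In the distal membrane arm they were NDUFB1 (-0.61 ± 0.0921, adjusted p = 2.36e-06), NDUFB6 (-0.45 ± 0.077), NDUFB4 (-0.39 ± 0.0619), NDUFB2 (-0.38 ± 0.0729) and NDUFB11 (-0.32 ± 0.0688). In the proximal part they were NDUFA1 (-0.48 ± 0.0764, adjusted p = 5.70e-06) and NDUFS5 (-0.38 ± 0.0639), and in the matrix arm NDUFA2 (-0.39 ± 0.0668). NDUFA4 was at -0.33 ± 0.0616. For these genes the difference between insulin and vehicle was not the same in control and H1047R cells, by the test of the difference itself. PIK3CA stood at 180 to 312 CPM in H1047R vehicle and at 714 to 734 CPM in H1047R insulin. The response to insulin and the higher PIK3CA level therefore cannot be told apart in the interaction. For NDUFV1 (-0.17 ± 0.0643, adjusted p = 0.0628) and for NDUFA3 (-0.34 ± 0.115, adjusted p = 0.0296) the interaction did not pass. NDUFB11 is the least firm of the 9, since its adjusted p of 0.0005 rose to between 0.00103 and 0.0047 when any one of 6 libraries was left out (H1047R insulin 2 or 3, H1047R vehicle 1 or 2, control insulin 3, control vehicle 2). NDUFB2 lost its call without control vehicle replicate 2 (adjusted p = 0.00127).

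H1047R in insulin compared both kinds of cells under insulin, and it shares the H1047R insulin libraries with the comparison above. Here 20 members were called lower and none higher with edgeR, and 17 with DESeq2, where 12.0% of all genes, and 23.7% of those averaging at least 10 CPM, were called lower. The median was -0.242, against -0.022 over all genes. By place, these were 8 of 11 distal membrane genes, 6 of 9 proximal ones, 4 of 9 accessory genes and 1 of 7 core genes of the matrix arm, and NDUFA4. NDUFA5 had 76.3, 83.8 and 79.9 CPM in control insulin and 57.8, 63.6 and 65.2 CPM in H1047R insulin (-0.36 ± 0.0618, adjusted p = 5.78e-06). NDUFB3, a single-pass distal subunit, had 56.9, 57.1 and 57.0 CPM and then 45.1, 46.2 and 45.7 CPM (-0.32 ± 0.0523, adjusted p = 2.63e-06). NDUFB5, of the same arm, had 87.6, 92.8 and 88.7 CPM and then 69.6, 74.9 and 73.7 CPM (-0.30 ± 0.0481, adjusted p = 1.72e-06). The groups stood apart in all of these. The largest differences were again those of NDUFB1 (-0.64 ± 0.0651) and NDUFA1 (-0.55 ± 0.054). The calls of NDUFV1 (-0.20 ± 0.0453), NDUFB11 (-0.22 ± 0.0483), NDUFC1 (-0.25 ± 0.0576) and NDUFS4 (-0.27 ± 0.0615) were lost when single libraries were left out. The libraries were H1047R insulin 1 or 2 or control insulin 2 or 3 for NDUFV1 (highest adjusted p 0.0069), H1047R insulin 3 or control insulin 3 for NDUFB11 (0.0064), H1047R insulin 1 or 2 or control insulin 1 or 3 for NDUFC1 (0.00874), and H1047R insulin 2 or 3 or control insulin 2 or 3 for NDUFS4 (0.00896).

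The members share properties that their names do not set. Their canonical transcripts are short, with a median of 694 bases and 68.4% under 1000 bases. All genes tested had a median of 2360 bases and 22.7% under 1000 bases. Among genes averaging at least 10 CPM the median was 3580 bases and 5.19% were under 1000 bases, as were 21 of the 33 members at that level. Other short transcripts were lower in the same comparison too. Among genes under 1000 bases and averaging at least 10 CPM, 184 of 498 (36.9%) were called lower for insulin in H1047R cells, and 9 of 21 such members (42.9%), with medians of -0.16 and -0.19. Among longer transcripts 18.6% of all genes and 5 of 12 members (41.7%) were called lower, with medians of 0.01 and -0.18. So the shorter members stood close to other short genes and the longer ones further from other long genes, and no test of this was made. Across the 33 members at this level, Spearman's rho of transcript length with the log2 fold change was 0.35, a description over genes that share the same libraries. With offsets that remove the median shift of each length class from every library, the members' median was -0.180 in place of -0.230, and NDUFB4, NDUFB7 and NDUFB11 lost their calls (-0.15, -0.20 and -0.19, adjusted p 0.0036, 0.00194 and 0.00155). With the same offsets NDUFB5 gained a call lower (-0.21, adjusted p = 0.00042) and, as given above, NDUFAB1 a call higher.

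Many members also share a start region with a neighbour on the opposite strand. For 19 of the 38 a gene on the opposite strand starts within 1000 bases, and for 14 this partner is a coding gene. The share of all genes with such a neighbour was not counted. In 11 pairs the coding partner averaged at least 5 CPM. For insulin in H1047R cells the member was below its partner in 9 of these pairs and the signs were opposite in 8, with medians of -0.19 for members and 0.16 for partners. Of all 38 members 36 had negative values, against 11390 of the 22756 genes tested. The counts of pairs therefore follow largely from the fall of the members and do not by themselves show opposite regulation within pairs. RNF113A, a spliceosome-linked zinc finger gene that starts 99 bases upstream of NDUFA1, had 12.7, 12.2 and 12.5 CPM in H1047R vehicle and 16.9, 17.3 and 16.9 CPM in H1047R insulin. It rose (0.45 ± 0.0734, adjusted p = 3.21e-06) where NDUFA1 fell, across the stretch with the ETS motif printed above. RBM10, an RNA-binding splicing regulator that starts 519 bases upstream of NDUFB11, went from 94.3, 90.9 and 91.9 CPM to 108, 107 and 107 CPM (0.22 ± 0.041, adjusted p = 3.63e-05). NAA15, a subunit of an N-terminal acetyltransferase, starts inside NDUFC1, within 1000 bases of its start, so that both genes overlap. It went from 124, 121 and 122 CPM to 157, 162 and 164 CPM (0.39 ± 0.0393, adjusted p = 8.71e-11), and NDUFC1 was at -0.19 without a call. NAA15 was also called higher with insulin in control cells (0.25 ± 0.0399). Called lower were RPS28, a ribosomal protein gene beside NDUFA7 (-0.48 ± 0.0505), and EEF1B2, a translation elongation factor gene beside NDUFS1 (-0.30 ± 0.044). IK, next to NDUFA2 (0.12 ± 0.04), and CPSF2, next to NDUFB1 (0.10 ± 0.0413), were not called.

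**Figure D5:**
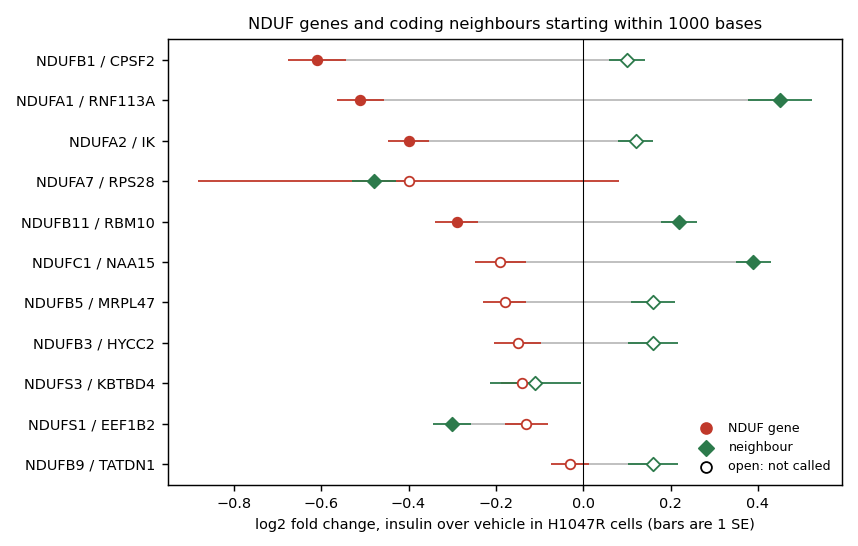
Log2 fold change for insulin in H1047R cells (± 1 SE) of 11 members (red circles) and their coding neighbours that start within 1000 bases on the opposite strand (green diamonds), filled where called. RNF113A (0.45) and NDUFA1 (-0.51) lie furthest apart among pairs in which both were called, and RPS28 and EEF1B2 are the neighbours called lower.

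The 7 complex I subunits encoded in mitochondrial DNA form the proton-pumping core of the membrane arm. All were called lower for insulin in H1047R cells, where 9.80% of all genes, and 19.5% of those averaging at least 10 CPM, were. Their log2 fold changes ran from -0.47 for MT-ND1 to -0.96 for MT-ND6, which is encoded on the opposite strand to the rest. MT-ND6 had 98.3, 105 and 112 CPM in H1047R vehicle and 53.4, 56.5 and 52.3 CPM in H1047R insulin. In control cells, where no nuclear member was called, MT-ND4 (-0.21 ± 0.0372), MT-ND5 (-0.22 ± 0.0339) and MT-ND6 (-0.43 ± 0.0633) were called lower with insulin. Of all genes 1.15%, and of those averaging at least 10 CPM 2.54%, were called lower in that contrast. The interaction was called lower for 6 of 7, where 4.49% of all genes, and 9.33% of those averaging at least 10 CPM, were. The exception was MT-ND4L (-0.22 ± 0.0866, adjusted p = 0.0712). In control cells the call of MT-ND4 depended on library 1 of either group (highest adjusted p 0.0057 when one was left out), and its interaction without control vehicle replicate 2, control insulin replicate 2 or H1047R insulin replicate 3 (highest 0.00233). None of the 7 was called for H1047R in vehicle with edgeR or DESeq2, with 3 at an unadjusted p under 0.05, where 11.9% of all genes were. MT-ND3 was the 1 gene of the 7 called there at an FDR below 0.05 (-0.18, adjusted p = 0.0469), where 1.21% of all genes were.

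The 19 assembly factors, which build the complex and are not part of it, gave few calls. For insulin in H1047R cells NDUFAF5 (0.26 ± 0.0632), a hydroxylase of NDUFS7, and TMEM70 (0.27 ± 0.0597), which serves ATP synthase too, were called higher, while COA1 (-0.19 ± 0.045) and DMAC1 (-0.31 ± 0.0698) were called lower. These 2 of 19 in each direction are near the shares of all genes, 9.85% higher and 9.80% lower. The median was -0.034, close to that of all genes. All 4 of these calls were near the threshold. Leaving out single libraries ended that of NDUFAF5 (H1047R insulin 1, 2 or 3, H1047R vehicle 2 or 3, highest adjusted p 0.0104), TMEM70 (H1047R insulin 2, H1047R vehicle 2 or 3, 0.00724), COA1 (H1047R insulin 1 or 2, any H1047R vehicle library, 0.00791) and DMAC1 (H1047R insulin 1 or 3, H1047R vehicle 1 or 2, 0.00563). In control cells none was called with edgeR or DESeq2, and 6 had an unadjusted p under 0.05, where 16.4% of all genes did. TMEM70 was the 1 factor called there at an FDR below 0.05 (0.21 ± 0.06, adjusted p = 0.0288), where 5.30% of all genes were.

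Of the 16 regulators of nuclear respiratory genes, PPRC1, a PGC-1-related coactivator, was called higher for insulin in H1047R cells and YY1, a zinc finger transcription factor, lower, a smaller share in each direction than the 9.85% and 9.80% of all genes. PPRC1 had 59.6, 57.7 and 57.7 CPM in H1047R vehicle and 83.1, 77.2 and 81.6 CPM in H1047R insulin (0.47 ± 0.0473, adjusted p = 1.18e-10), and its interaction was called (0.55 ± 0.0686). YY1 had 183, 200 and 205 CPM and then 164, 170 and 170 CPM (-0.22 ± 0.0413, adjusted p = 3.05e-05). So the coactivator was higher in the libraries in which the subunit genes were lower. NRF1 was at 0.09 ± 0.0608 and GABPA at -0.15 ± 0.0563, and neither was called. For H1047R in insulin, 2 of the 16 were called higher and 3 lower. Of all genes 12.0%, and of those averaging at least 10 CPM 23.7%, were called lower there. Called higher were 2605 of the 22756 genes tested, and 1890 of the 9602 averaging at least 10 CPM. GABPA was among the lower ones (-0.33 ± 0.0552, adjusted p = 4.66e-06). For H1047R in vehicle it was at -0.23 ± 0.0566 without a call (adjusted p = 0.0241). TFAM was also called for H1047R in insulin (149, 149 and 145 CPM in control insulin, 126, 132 and 129 CPM in H1047R insulin). Its call was lost without control insulin replicate 2 or H1047R insulin replicate 1 or 3 (highest adjusted p 0.00239).

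Among 8 related genes of complex I turnover and hypoxia, 5 were called higher for insulin in H1047R cells and 1 lower, where 9.85% of all genes and 17.9% of those averaging at least 10 CPM were called higher. BNIP3, a mitophagy receptor, had 218, 186 and 175 CPM in H1047R vehicle and 346, 333 and 330 CPM in H1047R insulin (0.80 ± 0.0546), and it was also called higher in control cells (0.40 ± 0.0553). LONP1 and CLPP, mitochondrial proteases, were at 0.32 ± 0.04 and 0.24 ± 0.0515, and HIGD1A at 0.32 ± 0.0718. PDK1, an inhibitor of pyruvate entry into the citric acid cycle, was at 0.21 ± 0.0474. Control cells given insulin had PDK1 called higher as well (0.28 ± 0.0482, adjusted p = 8.44e-05). With either vehicle 3 or insulin 2 of the control cells removed, that control call did not hold (highest adjusted p 0.00193). The PDK1 interaction was not called (-0.07 ± 0.0676). EPAS1, which encodes HIF-2α, was called lower (-0.25 ± 0.0471). The calls of CLPP (H1047R insulin 2 or 3, H1047R vehicle 2 or 3, highest adjusted p 0.00511), HIGD1A (H1047R insulin 2 or 3, H1047R vehicle 1 or 2, 0.0109) and PDK1 (any H1047R insulin library, H1047R vehicle 2 or 3, 0.00475) were lost when the named library was left out. NDUFA4L2, the hypoxia-induced paralog of NDUFA4, averaged 0.675 CPM and was not called.

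For comparison, gene families picked by symbol after the results were known were set beside the members, with no test of the difference. For insulin in H1047R cells, 9.80% of all genes, and 19.5% of those averaging at least 10 CPM, were called lower. Of 45 genes of complexes II to V, 24 (53.3%) were called lower, with a median of -0.266. Of 78 cytosolic ribosomal protein genes, 64 (82.1%) were called lower, with a median of -0.368. Of 76 mitochondrial ribosomal protein genes, 7 (9.21%, near the share of all genes) were called lower and 2 higher, with a median of -0.002. The median of the 38 members (-0.230) thus lay near that of complexes II to V, but a smaller share of them was called lower (36.8%). The share was also smaller for H1047R in insulin (52.6% against 73.3%) and the interaction (23.7% against 46.7%). These shares include the 5 members with shared exons, of which none was called, and NDUFA4 of complex IV. Among the 33 members averaging at least 10 CPM the shares were 42.4, 60.6 and 27.3%. Complexes II to V were not split by level, so the shares of both lists are not fully alike.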

How the data were processed

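Libraries were made from poly(A) RNA with a kit that keeps strand. Trimming by the authors used Trim Galore and cutadapt, and alignment to hg38 used STAR, whose raw gene counts were deposited for both strands together and for each strand. They hold reads placed at 1 site only. No version of any of them was stated. The GENCODE release that the methods name is a mouse one, so the human release behind the counts is not given in the sources used here. Reverse-strand counts were used, and they held 93.46 to 93.69% of strand-specific gene counts. The summary rows that name no gene stayed out of library sizes and tests, and those of ambiguous reads held 3.31 to 3.61% of reads.

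The test was edgeR's quasi-likelihood F test (edgeR 4.0.16, R 4.3.3) on the 22756 genes with a mean of 1 count or more per library. TMM factors were used, and the 12 libraries entered a single fit with a coefficient for each group, leaving 8 residual degrees of freedom. There were 5 contrasts, made up of the insulin effect in each kind of cell, the H1047R effect under each treatment, and the interaction (the insulin effect in H1047R cells minus that in control cells). The threshold was an FDR below 0.001 over all genes tested, the cutoff of the study. Adjustment was by Benjamini-Hochberg, whereas the authors used independent hypothesis weighting. All adjusted p-values are from edgeR unless DESeq2 (1.42.0) is named. SE is the absolute log2 fold change over the square root of F. The scripts were tested on simulated data first. Nothing in the files ties a library to a separate culture beyond the description as independent experiments, and p-values measure the spread between these libraries.

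The 60617 gene identifiers were matched to GENCODE v44 (60357 found), which gave coordinates, lengths of the canonical transcript and overlaps. Members and lists were chosen with earlier results of these data known. One member is counted but not reported here by name. The other members could be named, and values in every library were given for those called with the largest changes, those with the smallest changes, those that were higher, and the most and least abundant. Of the other lists, not every called gene was named, and for H1047R in insulin few were. The split at 10 CPM, the GC offsets and the gene families set beside the members were chosen after seeing the data. Alternatives were other scaling, filters, strand, samples in the fit, a replicate block, length offsets, an FDR of 0.05, and leaving out each library in turn.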

Additional observations from a re-analysis of the deposited data

Results flagged for a closer look

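These genes had a difference between insulin and vehicle that was not the same in control and H1047R cells, by the interaction test of edgeR. The PIK3CA level also differed between both H1047R groups, and its part cannot be told apart from that of insulin. Among the nuclear genes, the interaction was -0.61 for NDUFB1, -0.48 for NDUFA1, -0.45 for NDUFB6, -0.39 for NDUFA2, -0.39 for NDUFB4, -0.38 for NDUFB2, -0.38 for NDUFS5, -0.33 for NDUFA4 and -0.32 for NDUFB11. For the mitochondrial genes it was -0.55 for MT-ND3, -0.53 for MT-ND6, -0.31 for MT-ND1, -0.30 for MT-ND2, -0.27 for MT-ND4 and -0.27 for MT-ND5. It was positive for PPRC1 (0.55), BNIP3 (0.40) and RBM10 (0.26), the neighbour of NDUFB11, and negative for RPS28 (-0.41), the neighbour of NDUFA7. The RBM10 value is at the threshold (adjusted p = 0.000997) and lost its call when any one of 11 libraries (all but H1047R vehicle 1) was left out, with adjusted p between 0.00178 and 0.00465.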

How the results depend on the processing

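No alternative reversed a call of the members. Of the members called with edgeR, 8 of 14 kept their call for insulin in H1047R cells under every alternative (NDUFA1, NDUFA2, NDUFA4, NDUFB1, NDUFB2, NDUFB6, NDUFS5 and NDUFV1), as did 15 of 20 for H1047R in insulin and 7 of 9 for the interaction. At an FDR below 0.05 the number called was 1 for insulin in control cells (NDUFAB1), 27 for insulin in H1047R cells, 1 for H1047R in vehicle (NDUFA5) and 20 for the interaction, against 5.30, 34.3, 1.21 and 21.3% of all genes. Without a low-count filter, 1 member, NDUFA5, was called for H1047R in vehicle.

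The median for insulin in H1047R cells, -0.230, was -0.197 with library totals only, -0.202 without a low-count filter, -0.190 with a filter of 1 CPM in 3 libraries, -0.201 with unstranded counts and -0.180 with length offsets. For H1047R in insulin (-0.242) it was -0.205 with library totals only and -0.185 with length offsets, and for the interaction (-0.217) it was -0.168 with length offsets. The cause of these shifts was not tested.

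Leaving out 1 library at a time, 11 to 15 members were called for insulin in H1047R cells (median -0.244 to -0.184), 16 to 19 for H1047R in insulin (-0.264 to -0.222), 7 to 10 for the interaction (-0.25 to -0.183) and 0 for the other contrasts (medians -0.0 to 0.043 for insulin in control cells and -0.045 to -0.001 for H1047R in vehicle).

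With a replicate block, 15 members were called for insulin in H1047R cells, 20 for H1047R in insulin, 9 for the interaction and 0 for the other contrasts. Deviations from group means of libraries with the same number correlated at -0.02 to 0.0323 over 18 pairs, and those with different numbers at -0.0289 to 0.0386 over 36 pairs, so no pairing by number was seen. The correlations ran over all genes tested, with a median level of 3.38 CPM, so a weak pairing could go unseen. The 5 members with shared exon bases rest on as few as 4 counts in a library, which limits what can be seen in them. NDUFA11, at -0.52 for insulin in H1047R cells (adjusted p = 0.00161), was called without a low-count filter, with unstranded counts, GC offsets or the block.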
